A study of Mus musculus with 9 samples.

Results

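The comparison set the mammary gland of mice at day 14 of pregnancy against the gland of virgin mice at puberty, 6 weeks of age. It used 5 of the 9 arrays of the series, 3 from virgin females and 2 from pregnant females, with the arrays of lactation (day 10) and involution (day 4) left out of the main test. All animals were wild type C57BL/6J females and each array held RNA from the whole inguinal gland (No4) of 1 mouse. Of the 12422 probe sets that were not controls, 8874 had a mean signal above 20 in at least 1 of the 2 stages and were tested. These stood for 6594 genes, each represented by its brightest probe set.

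At puberty the mammary epithelium is a system of ducts that grows through a pad of fat under ovarian and pituitary hormones. During pregnancy, prolactin, placental lactogens and progesterone drive side branching and the formation of alveoli, whose luminal cells begin to make milk proteins before birth while myoepithelial cells surround them. The inguinal gland is a mixture of tissues: epithelium, white fat, vessels and nerves, a lymph node embedded in the pad, and body wall muscle close beneath it.

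The arrays separated by stage. Over the tested probe sets, log2 signals correlated at 0.963 to 0.970 between virgin arrays and at 0.970 between the pregnant arrays, against 0.880 to 0.920 between the stages, as a description. The ratio of 3' to 5' signal of the actin control probe sets was 1.03, 1.28 and 1.14 on the virgin arrays and 1.91 and 1.69 on the pregnant arrays. The same ratio for GAPDH was 0.868, 0.897 and 0.990 against 1.15 and 1.16, so that both control ratios were higher at pregnancy, and the part of RNA integrity in the results was not tested. Virgin replicate 1 stood apart in 2 gene groups. Its signals for Csn1s1, Csn2, Csn1s2a and Wap lay below the floor of 20, where the other virgin arrays read 157 to 718, and its signal for Ucp1, the uncoupling protein of brown fat, was 663 against 109 and 34.1. Markers of the labelled tissue were present on all 5 arrays, among them keratin 8 (Krt8, 490 to 1519), the collagen Col1a1 (3436 to 4961) and the fat hormone adiponectin (Adipoq, 2949 to 5366). The basal keratins Krt5 and Krt14 read below 20 on every array and were not tested, whereas smooth muscle actin (Acta2) read 400 to 1979.

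Between puberty and pregnancy, 1498 probe sets passed the test (limma, Benjamini-Hochberg adjusted p under 0.05), which is 16.9% of those tested. Of these, 771 were higher at pregnancy (8.69%) and 727 were lower (8.19%), with a change of at least 2-fold in 381 and 389 of them. By gene, 600 of 6594 were called higher (9.1%) and 566 lower (8.58%), and these shares are the background for each gene group below. For all of the called probe sets the arrays of the 2 stages did not overlap. Signals of all tested probe sets did not overlap in 26.5% with the pregnant arrays above and in 22.4% with them below. The call rested on few arrays: 201 probe sets passed without pregnant replicate 2 and 474 without pregnant replicate 1, against 962 to 1164 without 1 of the virgin arrays. Every called probe set kept the direction of its change in each of these 5 fits, which the lack of overlap between the stages fixed in advance. The share called was higher among bright probe sets, from 9.01% among the 2219 dimmest tested probe sets to 27.4% among the 2219 brightest. Of 240 called genes with several tested probe sets, 77 had all of them called the same way and 2 had one called the other way. In RNA of a whole gland, fewer cells of a type and less RNA per cell cannot be told apart.

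**Figure D1:**
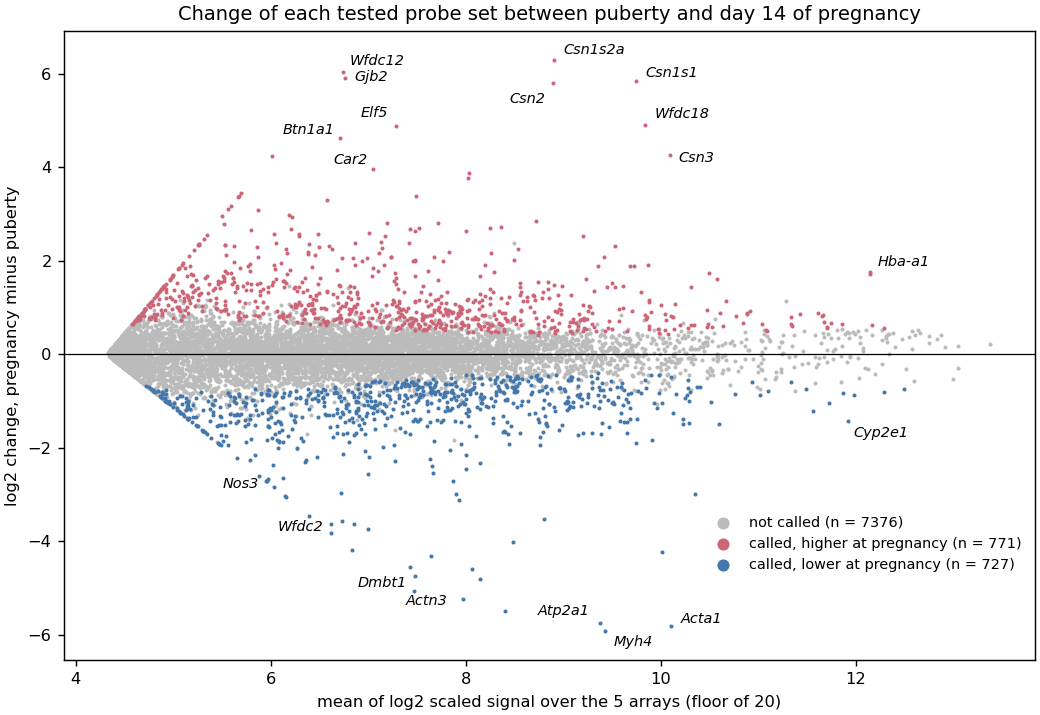
Log2 change (pregnancy minus puberty, vertical axis) against the mean log2 scaled signal over the 5 arrays (horizontal axis) for each of the 8874 tested probe sets, with 771 called higher in red, 727 called lower in blue and the rest in grey. The largest rises are milk protein, Wfdc, connexin and Elf5 probe sets, and the largest falls are skeletal muscle genes together with Dmbt1 and Wfdc2. The diagonal edges are probe sets for which all arrays of 1 stage lie at the floor.

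The caseins, the main proteins of milk micelles, gave 3 of the 5 largest rises by gene. The promoters of the 3 caseins with the largest changes are shown first, since STAT5, the transcription factor that prolactin activates, binds palindromes of the form TTCNNNGAA. Each window runs from 250 bases before to 50 bases after the RefSeq transcription start (build GRCm38.p6), with capitals marking each match to TTCNNNGAA, a motif that reads alike on both strands.

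Csn1s1, chr5:87665958-87666257, plus strand: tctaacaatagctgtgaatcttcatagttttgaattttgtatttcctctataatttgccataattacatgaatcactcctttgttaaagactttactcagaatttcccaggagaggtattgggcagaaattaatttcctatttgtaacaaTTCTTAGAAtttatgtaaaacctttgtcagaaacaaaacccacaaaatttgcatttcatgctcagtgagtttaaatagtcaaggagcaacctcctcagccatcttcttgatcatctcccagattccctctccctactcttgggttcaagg
Csn2, chr5:87699376-87699675, minus strand: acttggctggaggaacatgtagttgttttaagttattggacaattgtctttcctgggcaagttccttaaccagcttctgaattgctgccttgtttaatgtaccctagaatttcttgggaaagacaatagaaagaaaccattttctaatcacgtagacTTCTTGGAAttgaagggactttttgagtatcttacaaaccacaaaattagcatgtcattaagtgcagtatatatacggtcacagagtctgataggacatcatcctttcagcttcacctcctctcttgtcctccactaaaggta
Csn1s2a, chr5:87774200-87774499, plus strand: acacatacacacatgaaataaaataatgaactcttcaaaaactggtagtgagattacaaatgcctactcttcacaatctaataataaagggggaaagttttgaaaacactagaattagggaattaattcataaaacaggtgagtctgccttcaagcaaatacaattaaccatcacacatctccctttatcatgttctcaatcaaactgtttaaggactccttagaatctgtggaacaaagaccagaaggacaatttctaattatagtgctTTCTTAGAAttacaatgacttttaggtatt

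The motif began 100 bases before the start in Csn1s1, 93 bases before it in Csn2, and at base 21 of the transcript in Csn1s2a. It was found in 4 of 8 windows of the tested milk protein genes and in 8.30% of the 32851 promoter windows of the table. A match is a description of these letters and not of binding.

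For Csn1s2a the scaled signals were 3.53, 189 and 157 on the virgin arrays and 7175 and 6040 on the pregnant arrays. Csn1s1 read 17.3, 677 and 363 against 10270 and 9346. Csn2 read 5.01, 246 and 176 against 5497 and 5128. In all 3 the pregnant arrays lay more than an order of magnitude above every virgin array, and virgin replicate 1 lay far below the other virgin arrays. The log2 changes were 6.29 for Csn1s2a (SE 0.87, adjusted p = 0.00479), 5.85 for Csn1s1 (SE 1.31, adjusted p = 0.0242) and 5.80 for Csn2 (SE 0.95, adjusted p = 0.00821). Without virgin replicate 1 they were 5.26, 4.30 and 4.67, and all 3 were called. Without either pregnant array they were not called, with adjusted p from 0.144 to 0.278. Csn3, the kappa-casein that stabilises the micelle surface, did not share the split among virgin arrays, with 373, 346 and 292 at puberty and 6875 and 5952 at pregnancy. Its log2 change was 4.25 (SE 0.15, adjusted p = 2.04e-05), a 19.1-fold rise that was called in all 5 fits with 1 array left out.

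The milk genes did not all rise with the caseins. Of 10 tested milk protein genes 7 were called higher and none lower, with a median log2 change of 2.08 against 0.0293 over all tested genes. Wap, the whey acidic protein, read 4.22, 718 and 449 at puberty and 727 and 1287 at pregnancy, so that its stages did not overlap but its change of 2.38 (95% interval -0.85 to 5.60) did not pass the test (adjusted p = 0.283). Without virgin replicate 1 the change of Wap was 0.77 (adjusted p = 0.179). Csn1s2b, another alpha-s2-casein, ran the other way with 5.01, 64.3 and 50.5 against 19.9 and 19.8. Its pregnant arrays lay at the floor. The log2 change was -1.01 with the interval from -2.10 to 0.09, and with virgin replicate 1 left out it was -1.504 and called (adjusted p = 0.0128). Lalba, alpha-lactalbumin, which makes lactose synthase specific for glucose, read 50.5, 20.6 and 21.7 against 117 and 80.8 (log2 change 1.78, adjusted p = 0.0280). The call of Lalba was lost without virgin replicate 2 (adjusted p = 0.0745) and without virgin replicate 3 (0.0769). Glycam1, a mucin-like milk protein, was bright already at puberty (2421, 2762 and 2518) and reached 3996 and 5305 (log2 change 0.84, adjusted p = 0.0162). Its call was lost without virgin replicate 3 (adjusted p = 0.0516). Cel, the lipase stimulated by bile salts, rose by 1.33 on the log2 scale, and lactoferrin (Ltf) read 74.4, 140 and 140 against 116 and 162 (0.28, adjusted p = 0.588). Only 1 milk protein gene was called without pregnant replicate 1, and 1 without pregnant replicate 2.

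Proteins of the milk fat globule also rose, 7 of 9 tested members, with 1 lower and a median log2 change of 1.62. Butyrophilin (Btn1a1), a membrane protein of the globule, read 28.8, 42.5 and 19.6 at puberty and 547 and 948 at pregnancy, a log2 change of 4.63 (SE 0.36, adjusted p = 0.000706). Muc1, an apical mucin, rose by 2.002 on the log2 scale (111, 106 and 91.3 against 387 and 436). Plin2, the coat protein of lipid droplets, rose by 1.62, and Fabp3, a fatty acid carrier, by 2.59. The member that fell was Cidea, a droplet protein of milk secreting cells and brown fat, at 568, 186 and 232 against 70.8 and 50.6 (log2 change -2.28, adjusted p = 0.0155). Cidea was highest on virgin replicate 1, the array with the highest Ucp1. Without pregnant replicate 1 the globule list had 2 calls higher and 0 lower, and without pregnant replicate 2 it had 1 and 0.

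Genes outside the milk lists reached rises of the same size as the caseins. Wfdc12 and Wfdc18 encode small proteins with a whey acidic protein domain. Wfdc12 read 8.44, 9.25 and 9.57 on the virgin arrays, all under the floor, and 1549 and 1107 on the pregnant arrays, at least 65.45-fold higher (adjusted p = 1.53e-05). A dimmer probe set for Wfdc12 read 9.95 to 16.5 against 19.5 and 25.1 and was not called. Wfdc18 rose from 254, 234 and 220 to 8098 and 6112, a log2 change of 4.90 (SE 0.15). The family split, since Wfdc2 (250, 333 and 233 against 21.2 and 22.4) had a log2 change of -3.62, and Wfdc21 (444, 637 and 456 against 116 and 73.3) one of -2.45. Elf5, the ETS factor required for alveolar development, read 41.9, 43.8 and 35.6 at puberty and 1128 and 1253 at pregnancy, a log2 change of 4.88 (SE 0.16, adjusted p = 1.53e-05). Wfdc18, Wfdc2 and Elf5 were called in all 5 fits with 1 array left out. Wfdc12 was too, but with its virgin arrays at the floor the fits on 1 pregnant array had no spread to measure.

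The rest of the largest rises held genes of several kinds. Carbonic anhydrase 2 (Car2) read 40.6, 47.2 and 45.4 against 645 and 730 (log2 change 3.95, adjusted p = 4.58e-05). Plet1, an epithelial surface protein, rose by 3.77 and Phlda1 by 3.38, the latter from 124, 65.4 and 42.6 to 656 and 819. Lgals7, a galectin of epithelia, read 7.27, 6.13 and 9.16 against 201 and 214, at least 10.4-fold higher. Crabp2, the retinoic acid carrier, read 11.7, 9.15 and 18.8 against 220 and 191, at least 10.3-fold higher. For Notch4 the brightest probe set read 18.5, 17.2 and 12.1 against 92.5 and 507, at least 10.83-fold higher with the widest gap between pregnant arrays among these genes, and the other Notch4 probe set differed by -0.06 and was not called.

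**Figure D2:**
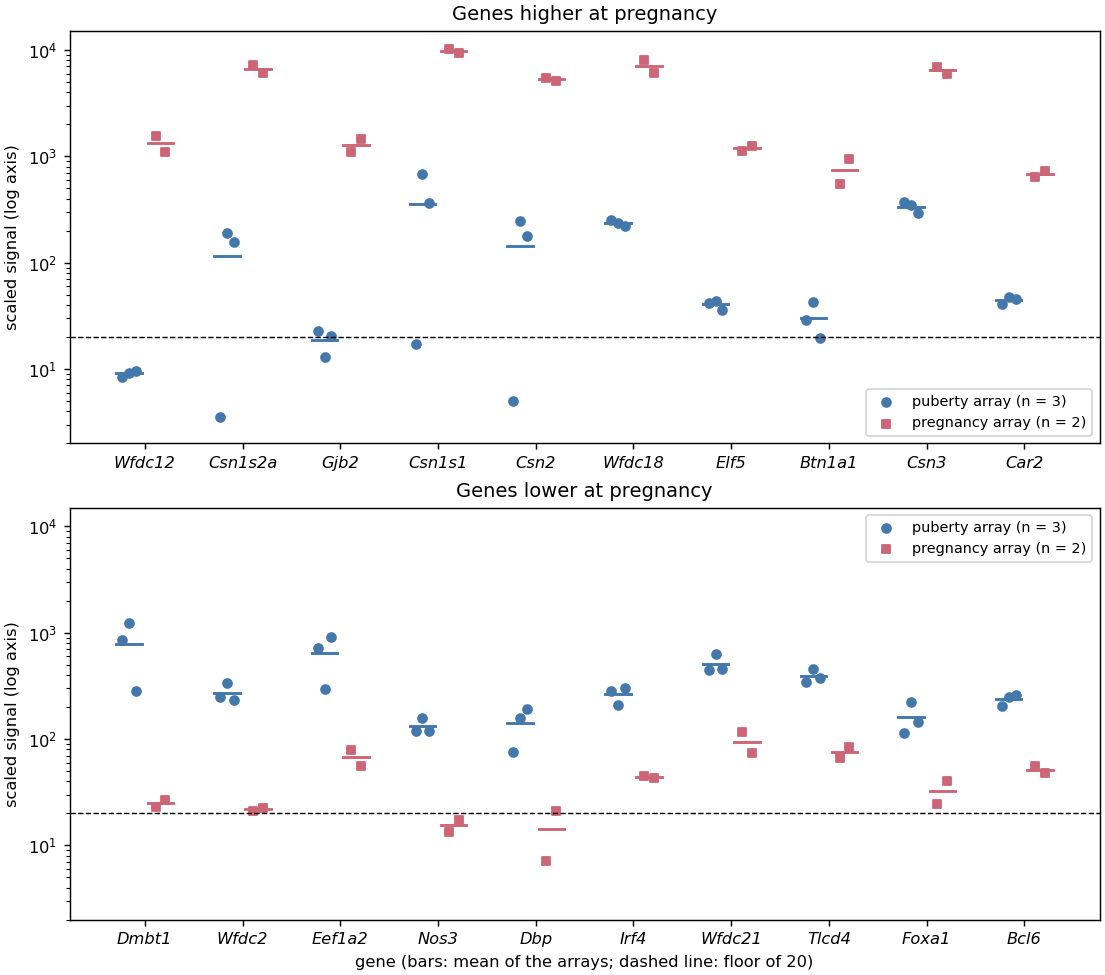
Scaled signal on a log axis for 10 genes higher and 10 genes lower at pregnancy, with blue circles for the 3 puberty arrays, red squares for the 2 pregnancy arrays, short bars for stage means and a dashed line at the floor of 20. The caseins Csn1s1, Csn2 and Csn1s2a each have 1 puberty array below the floor, while Wfdc18, Elf5 and Csn3 have tight groups that do not overlap.

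Among the falls outside skeletal muscle, Dmbt1 was the largest. Dmbt1, a secreted scavenger receptor protein of epithelia, read 849, 1231 and 280 at puberty and 23.0 and 27.0 at pregnancy, a log2 change of -4.74 (SE 0.55, adjusted p = 0.00275). The spread among virgin arrays was over 4-fold, and the call was lost without either pregnant array (adjusted p = 0.113 and 0.120). Nos3, endothelial nitric oxide synthase, read 119, 156 and 120 against 13.5 and 17.3, both under the floor, at least 6.54-fold lower. Tlcd4 (346, 460 and 376 against 66.3 and 84.3) fell 5.231-fold and Bcl6, a transcriptional repressor, 4.587-fold (205, 250 and 258 against 55.5 and 47.9). Tlcd4 and Bcl6 were called in all 5 fits with 1 array left out. Irf4, a transcription factor of lymphocytes and adipocytes, fell 5.918-fold, while Fmnl1 and Ncf1, genes of blood cells, fell 5.198-fold and 4.827-fold. Eef1a2 (716, 299 and 911 against 78.2 and 56.3), Nrap and Rtn2 fell 8.735-fold, 6.537-fold and 4.59-fold. Each was highest on virgin replicate 3 and lowest on virgin replicate 2, the order of the summed muscle signal given below. The part of muscle in these 3 falls was not tested.

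Genes of hormone signalling and alveolar fate were mixed, with 12 of 27 tested members higher and 3 lower and a median of 0.33. Among the signals downstream of progesterone, Tnfsf11 (RANKL) rose from values under the floor (12.7, 16.6 and 15.7) to 72.7 and 68.0, and Wnt4 from 8.93, 16.8 and 9.37 to 62.3 and 48.6, at least 3.52-fold and 2.75-fold. At a floor of 50 Tnfsf11 was called and Wnt4 was not (limma, adjusted p = 0.0131 and 0.45). The receptor of RANKL, Tnfrsf11a, read 69.6, 46.8 and 25.4 against 63.8 and 57.1 and was not called. Id2, a helix-loop-helix inhibitor needed for alveoli, rose by 1.54 and Ccnd1, cyclin D1, by 1.39. The other Ccnd1 probe set differed by 0.91 and was not called. Both pregnant arrays lay above every virgin array, at 711 and 929 against 233 to 306 for Id2 and at 898 and 752 against 268 to 340 for Ccnd1.

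Of the prolactin pathway, the kinase and the STAT5 genes were not called, while 3 feedback inhibitors were. Jak2 read 96.6, 102 and 95.4 against 84.2 and 110 (log2 change -0.02), Stat5a 751, 635 and 659 against 814 and 890 (0.32, adjusted p = 0.132), and Stat5b 58.8, 72.9 and 82.6 against 46.2 and 60.6 (-0.42, adjusted p = 0.272). Of the inhibitors of cytokine signalling, Cish rose from 56.5, 47.6 and 52.2 to 143 and 183 (1.64, adjusted p = 0.00313) and Socs2 by 0.94 (adjusted p = 0.0388). Socs3 fell from 89.6, 94.1 and 119 to 33.2 and 41.5 (-1.43, adjusted p = 0.00668). The call of Socs2 was lost without virgin replicate 2 (adjusted p = 0.0607). Socs1 read 94.4, 94.7 and 72.2 against 59.1 and 61.6 and did not pass.

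Of the receptors and luminal factors, Erbb3 rose by 1.24, Gata3 by 0.998, Nfib by 1.23 and the phosphatase Ptprf by 0.95. Foxa1, a pioneer factor of hormone sensing cells, read 114, 224 and 144 against 24.4 and 39.96 and fell 4.932-fold (adjusted p = 0.00569), and Cited1, a coactivator found in the same cells, fell by 0.99. The estrogen receptor Esr1 lay close to the floor (16.9, 31.3 and 32.2 against 8.04 and 7.23) and was not called with the floor (adjusted p = 0.279). The progesterone receptor Pgr read under 20 on all 5 arrays and was not tested. Igf2 rose from 278, 221 and 293 to 530 and 822 (1.33), whereas Igf1 read 645, 757 and 507 against 483 and 270 (-0.80, adjusted p = 0.0884). Cebpb, Igf1r, Gal, Nr3c1 and Irs1 were not called with the floor of 20. With no floor the whole hormone list had 12 calls higher and 5 lower, against 12 and 3 with it. Leaving out pregnant replicate 1 left this list 6 calls higher and 1 lower, and leaving out pregnant replicate 2 left 4 and 0.

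Genes of pubertal duct growth fell more often than they rose, 5 of 19 tested members against 1, with a median of -0.22. Besides Dmbt1, these were Lef1, a WNT effector (317, 313 and 359 against 163 and 142, log2 change -1.11), the FGF receptors Fgfr1 (-0.85) and Fgfr2 (-0.98), and Btg2, an antiproliferative gene (-0.56). The call of Btg2 was lost without virgin replicate 2 (adjusted p = 0.0633). Tgfb3 rose by 0.93 (248, 188 and 170 against 328 and 442), and its call was lost without virgin replicate 2 and without virgin replicate 3. Values of members that did not pass lay between the extremes: Ghr, the growth hormone receptor, read 506, 550 and 545 against 447 and 351 (-0.43, adjusted p = 0.0823), and Tgfb1 read 257, 263 and 170 against 168 and 90.6 (-0.87, adjusted p = 0.0968). Egfr, Ntn1, Neo1, Msx1 and the activin subunits Inhba and Inhbb were not called either. The fit without pregnant replicate 1 called 1 of these falls, and without pregnant replicate 2 limma called none of 17 tested members.

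Genes of both epithelial lists rose more often than they fell. Of 17 luminal genes 8 were higher and 2 lower (median 0.85), and of 14 basal and myoepithelial genes 9 were higher and 1 lower (median 1.45). The tight junction proteins Cldn3 (92.0, 112 and 63.5 against 527 and 607, log2 change 2.71) and Cldn7 (56.2, 50.4 and 30.1 against 253 and 271, 2.57) rose most among luminal genes, with Epcam, the epithelial adhesion molecule, at 1.86. Ehf, an ETS factor, rose from values under the floor to 78.7 and 74.8, at least 3.834-fold. The luminal genes that fell were the keratin Krt7 (177, 168 and 127 against 65.0 and 69.6, -1.21) and Prom1, a surface marker of hormone sensing cells (128, 133 and 70.1 against 33.4 and 31.6, -1.71). Krt7 and Prom1 were among the calls lost without either pregnant array, and the other Prom1 probe set differed by -0.48 and was not called.

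In the basal list the contractile genes led. They include smooth muscle genes, and the basal keratins Krt5 and Krt14 were not tested. The cell type behind these rises was not tested. Calponin (Cnn1) read 87.2, 98.8 and 81.5 at puberty and 516 and 408 at pregnancy, a log2 change of 2.37 (SE 0.17, adjusted p = 0.000706). Myh11, smooth muscle myosin, rose by 2.02, Tagln by 1.52 and the kinase Mylk by 1.43. Tpm2 fell by 1.91, with 572, 368 and 984 against 168 and 147, and its virgin arrays had the order of the summed skeletal muscle signal. Skeletal muscle also makes this tropomyosin, and the part of muscle in this fall was not tested. Without pregnant replicate 1 and without pregnant replicate 2, 4 and 3 basal genes were called higher, and 3 and 1 luminal genes. Cnn1, Tagln and Mylk were called in all 5 fits with 1 array left out. Ehf was too, but with its virgin arrays at the floor the fits on 1 pregnant array had no spread to measure.

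Cell junction genes rose in 7 of 13 tested members, and none was lower (median 0.76). The gap junction protein Gjb2, connexin 26, read 22.8, 12.9 and 20.4 at puberty and 1098 and 1458 at pregnancy, a log2 change of 5.91 (SE 0.19, adjusted p = 1.53e-05). Gjb6, connexin 30, read 2.95, 3.92 and 6.04 against 137 and 214, at least 8.54-fold higher. The other tested connexins were not called: Gja1 (0.09), Gja5 (0.16) and Gjb1 (-0.38). Of the tight junction parts, Tjp1 rose by 0.83, F11r by 0.76, Pard3 by 1.02 and Cldn8 by 1.02, the last with a call that was lost without virgin replicate 2 or virgin replicate 3. Ocln reached 41.0 and 37.6 from under the floor, at least 1.964-fold, while Cldn1, Cldn4 and Cldn5 were not called. Fewer junction genes were called without a pregnant array, with Gjb2, Gjb6 and Ocln called in both of these fits. For Gjb6 and Ocln every virgin array lay at the floor, so the fits on 1 pregnant array had no spread to measure.

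Genes of mitosis rose together more completely than any other group of over 10 genes: 27 of 30 tested members were higher and none lower (90.0%, against 9.1% of all tested genes), with a median log2 change of 1.53. DNA replication genes followed with smaller changes, 7 of 25 higher and none lower, with a median of 0.64. Promoters of mitotic genes are known for CCAAT boxes and for the cell cycle homology element TTTGAA, through which the DREAM complex and MuvB act. Windows of 3 mitotic genes, of which Cdk1 and Cdc20 were chosen after their values were seen, show both in capitals, on either strand.

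Ccnb2, chr9:70421505-70421804, minus strand: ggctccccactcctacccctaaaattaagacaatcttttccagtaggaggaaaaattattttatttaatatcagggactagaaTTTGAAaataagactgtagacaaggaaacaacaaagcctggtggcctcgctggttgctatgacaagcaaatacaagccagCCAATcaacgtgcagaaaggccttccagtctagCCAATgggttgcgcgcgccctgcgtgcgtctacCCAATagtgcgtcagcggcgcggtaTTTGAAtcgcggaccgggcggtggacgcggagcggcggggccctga
Cdk1, chr10:69352863-69353162, minus strand: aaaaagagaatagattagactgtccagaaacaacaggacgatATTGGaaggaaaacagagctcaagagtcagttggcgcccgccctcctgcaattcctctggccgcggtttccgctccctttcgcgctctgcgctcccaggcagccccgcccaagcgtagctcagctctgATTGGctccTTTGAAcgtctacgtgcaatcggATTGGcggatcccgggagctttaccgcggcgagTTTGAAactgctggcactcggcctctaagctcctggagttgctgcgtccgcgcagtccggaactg
Cdc20, chr4:118437294-118437593, minus strand: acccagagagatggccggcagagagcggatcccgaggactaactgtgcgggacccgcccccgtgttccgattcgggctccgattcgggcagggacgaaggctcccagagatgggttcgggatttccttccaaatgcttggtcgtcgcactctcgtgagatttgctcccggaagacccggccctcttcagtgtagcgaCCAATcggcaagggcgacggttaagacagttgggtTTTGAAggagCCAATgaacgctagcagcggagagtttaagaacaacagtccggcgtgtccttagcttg

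TTTGAA stood in 18 of 24 windows of tested mitosis genes, in 3 of 23 windows of DNA replication genes (13.0%) and in 17.9% of all windows. CCAAT stood in 19 of 24 mitosis windows (79.2%), 13 of 23 replication windows (56.5%) and 37.4% of all windows. The last TTTGAA began 15 bases before the start in Cdk1, 18 bases before it in Cdc20 and at base 5 of the transcript in Ccnb2.

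Ccnb2, cyclin B2, read 197, 148 and 161 at puberty and 797 and 709 at pregnancy, a 4.49-fold rise (log2 change 2.17, SE 0.16, adjusted p = 0.000706). Stmn1, a microtubule destabiliser of dividing cells, rose 7.25-fold from 253, 205 and 135 to 1481 and 1297. The kinesins Kif20a (31.0, 30.1 and 6.44 against 179 and 156) and Kif22 (116, 94.99 and 88.3 against 310 and 279) rose by 2.65 and 1.57. In these 4 genes both pregnant arrays lay close together and above every virgin array. Cdk1, the mitotic kinase, read 90.6, 79.7 and 83.2 against 425 and 238, and Cdc20, an activator of the anaphase promoting complex, 132, 129 and 99.0 against 523 and 323, both with pregnant replicate 1 the higher. Of the replication genes, the ribonucleotide reductase subunits Rrm1 and Rrm2 rose by 2.29 and 1.51, and Pcna, the polymerase clamp, by 1.03, while Prim1, a primase subunit, was at least 2.18-fold higher. Myc, the growth regulator, rose from 62.1, 40.5 and 42.3 to 113 and 145 (1.43, adjusted p = 0.0110). With pregnant replicate 1 left out the mitosis list had 9 calls and the replication list 2, and without pregnant replicate 2 they had 7 and 2, with median log2 changes of 1.43 and 1.77 for mitosis.

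Lipid genes went mainly down. Of 18 tested genes of fatty acid and triglyceride synthesis 7 were lower and 2 higher (median -0.52). Gpam, the first enzyme of glycerolipid synthesis, read 970, 1227 and 1110 against 410 and 334 (log2 change -1.57, adjusted p = 0.00151). Dgat1, which makes triglyceride, fell by 1.22, where its other probe set differed by -0.31 and was not called. The desaturase Fads1 rose from 198, 184 and 272 to 589 and 494 (1.33), and the ligase Acsl4 rose by 1.05, where its other probe set differed by 0.19 and was not called. For mitochondrial fatty acid oxidation all 16 tested genes had negative values, 10 were called lower and none higher (median -0.79). Acadl (294, 277 and 252 against 132 and 105) fell by 1.22, Cpt2 by 0.97, Acadm by 0.87 and Eci1 by 0.86. Cholesterol synthesis showed 1 call in 15, Nsdhl (-0.84), and a median of 0.06.

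White fat markers fell in the same direction, 10 of 19 tested lower and 1 higher (median -0.76), with summed signals of 30830 to 37240 at puberty and of 24110 and 17420 at pregnancy. Plin4, a droplet coat protein of adipocytes, read 1420, 1476 and 1459 against 513 and 294 (log2 change -1.90, adjusted p = 0.00273). Pck1, which feeds glyceride synthesis in fat, fell by 1.69 and Rbp4, a retinol carrier, by 1.54. Adipoq and Fabp4, defining markers of fat, were not called. G0s2, an inhibitor of the lipase ATGL, rose from 358, 402 and 379 to 1022 and 817 (1.27). The part of fat content in the falls of lipid genes was not tested. Oxidation calls numbered 6 without virgin replicate 2, and synthesis calls lower numbered 4 without virgin replicate 2 and 4 without virgin replicate 3. Without pregnant replicate 2, 0 oxidation genes, 0 synthesis genes and 1 white fat gene were called lower, and without pregnant replicate 1 these were 3, 2 and 2.

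Brown fat genes differed widely among the virgin arrays. Of 8 tested, 3 were lower (Cox7a1, Cidea and Cox8b) and 1 was higher (Fabp3), and all 4 belong to other lists as well. Ucp1 itself read 663, 109 and 34.1 against 55.7 and 15.7 and was not called (adjusted p = 0.262). The call of Cox7a1 was lost without virgin replicate 3. Without virgin replicate 1 the list median moved from -1.76 to -1.08.

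Secretory machinery gave few calls. Of 38 tested genes of protein translocation, folding and transport through the endoplasmic reticulum 3 were higher (7.89%) and 1 was lower (2.63%), shares below those of all tested genes, with a median of 0.17. Ssr2 rose by 0.84, Sec61b, part of the translocon, by 0.67 and Xbp1, the factor that expands the secretory apparatus, by 0.88 (529, 564 and 398 against 767 and 1072). Herpud1, which acts in degradation of misfolded proteins, fell by 0.83. The call of Xbp1 was lost without virgin replicate 3. None of the 21 tested genes on the list of cytosolic ribosomal proteins was called with limma at an adjusted p of 0.05. Of these, 14 had both pregnant arrays above all virgin arrays (66.7%, against 27.7% of tested genes), and the median was 0.43. At an unadjusted p under 0.05, 13 were higher and 0 lower. With the values as deposited 8 of them passed, whereas with quantile normalization 0 passed and the median was 0.22. A filter of 100 left 17 tested, of which 12 passed, and a robust eBayes called 8 of 21. Rpl10a, a ribosomal protein gene outside this list, was called higher on both tested probe sets (log2 changes 0.79 and 0.80).

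Mammary transporters moved both ways, 6 of 19 higher and 5 lower. The zinc exporter Slc30a4 rose from 106, 106 and 98.1 to 305 and 277 (1.495), and the phosphate carrier Slc34a2 from under the floor to 48.7 and 62.7, at least 2.76-fold. Slc12a2, the sodium, potassium and chloride cotransporter, fell from 1152, 1479 and 1190 to 456 and 516 (-1.38), and Slc1a5, a carrier of neutral amino acids, from 817, 900 and 1046 to 345 and 221 (-1.73). The rise of Slc30a4 was called in all 5 fits with 1 array left out. Slc34a2 was too, but with its virgin arrays at the floor the fits on 1 pregnant array had no spread to measure. At a floor of 50 Slc34a2 was not called (limma, adjusted p = 0.45). The 5 calls lower became 3 without virgin replicate 2 and 3 without virgin replicate 3, and fewer held without a pregnant array.

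Skeletal muscle genes gave the lowest median of the 30 lists that were not taken from the study. Of 60 tested genes 40 were lower and 1 higher, with a median log2 change of -1.96, and the summed signal was 41840, 28030 and 61260 on the virgin arrays and 10540 and 8039 on the pregnant arrays. Myh4, the fast IIb myosin, read 4344, 2072 and 4968 against 171 and 2.74 (log2 change -5.92, adjusted p = 0.00479). Skeletal actin (Acta1) read 5781, 3640 and 8089 against 481 and 3.13, and the calcium pump Atp2a1 3136, 2038 and 5380 against 173 and 21.4. In Acta1 and Myh4, pregnant replicate 1 thus lay above the floor of 20 and pregnant replicate 2 below it. A second, dim probe set for Myh4 (28.6 to 45.3 against 42.8 and 57.4) differed by 0.55 and was not called. Actn3, an actinin of fast fibres, fell 37.79-fold, the glycogen phosphorylase Pygm 33.37-fold, the troponins Tnnt3 and Tnnc2 27.79-fold and 23.97-fold, and the oxidase subunit Cox6a2 23.38-fold. The call of Acta1 was lost without virgin replicate 3 (adjusted p = 0.0529). The member that rose was Tpm1, a tropomyosin that smooth muscle also makes (309, 316 and 261 against 698 and 697, 1.25). Leaving out pregnant replicate 1 left 5 calls lower, and leaving out pregnant replicate 2 left 0, with medians of -2.09 and -1.89. The share of muscle in the dissected tissue was not tested.

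Lymphocyte genes fell on both pregnant arrays. Of 19 T cell genes 16 were lower and none higher (84.2%, median -1.52), and of 19 tested B cell and plasma cell genes 11 were lower and none higher (57.9%, median -0.96). Cd3g, a chain of the T cell receptor complex, read 104, 90.7 and 121 against 21.0 and 25.9, a 4.47-fold fall (log2 change -2.16, adjusted p = 0.00186). Cd8a, the coreceptor of cytotoxic cells, fell 4.009-fold, Cd6 3.609-fold and Il7r, the interleukin 7 receptor, 2.902-fold. The other Cd6 probe set differed by -0.80 and was not called. Among B cell genes, Cd79b, part of the antigen receptor, read 643, 648 and 599 against 297 and 193 (-1.39), and the kinase Blk and the surface proteins Cd37 and Cd22 fell 2.497-fold, 2.245-fold and 2.138-fold. The virgin arrays lay close together, with summed T cell signals of 2654 to 3172 against 1673 and 1402. The calls without pregnant replicate 1 were 3 for T cells and 6 for B cells, and without pregnant replicate 2 they were 2 and 3, with Blk, Cd79b and Cd37 among those called in both. Ighm, the heavy chain of IgM, had 10 tested probe sets, of which 3 were called lower and 1 higher. The part of the lymph node in these falls was not tested.

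Myeloid markers did not follow the lymphocytes. Of 21 tested genes of macrophages and dendritic cells 1 was higher (Cd14, 0.96) and 1 lower (Cd83, -1.62), with a median of -0.04, and the defining markers Adgre1 and Cd68 differed by 0.22 and 0.06 without a call. Interferon response genes gave 1 call in 27, Irf8 (-0.89), a factor of myeloid and B cells. Genes of mucosal defence rose in 5 of 14 tested and fell in 1. Pigr, which carries IgA across the luminal cell, read 127, 114 and 132 against 478 and 673 (log2 change 2.19, adjusted p = 0.000761), and Ubd, a ubiquitin-like protein, rose by 2.02. Lcn2, an iron-withholding lipocalin, rose from 193, 179 and 85.0 to 879 and 986 (2.70), with another probe set at 0.27 and not called, while the cathelicidin Camp fell by 1.86. Pigr and Ubd were called in all 5 fits with 1 array left out.

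Stroma gave few calls higher, and calls lower at the share of all tested genes. Of 35 tested matrix and fibroblast genes 1 was higher (2.86%, against 9.1% of all tested genes). It was the collagen-binding proteoglycan Fmod (27.8, 31.4 and 64.5 against 266 and 196, log2 change 2.57). The 3 lower (8.57%, against 8.58% of all tested genes) were Timp2 (-1.15), Tnxb (-1.45) and Timp3 (-0.82). Another Tnxb probe set differed by -0.55 and was not called. Col1a1 and Col3a1 differed by -0.06 and 0.01, with virgin values of 3436 to 4961 for Col1a1 that enclosed both pregnant values. In the basement membrane 3 of 15 genes rose, Lama1 (1.91), Lama2 (0.67) and Col4a1 (0.64), of which 1 was called without virgin replicate 3. None of the stromal and basement membrane calls held without either pregnant array. The endothelial list had 3 of 19 lower, Nos3, Ramp2 (-0.63) and Flt1 (-0.77), and 1 higher, Pdpn (0.79), a lymphatic marker that other cells share. The calls of Ramp2 and Flt1 were lost without virgin replicate 1 and without virgin replicate 2, that of Flt1 also without virgin replicate 3, and that of Pdpn without virgin replicate 2 and without virgin replicate 3. The defining markers Pecam1 and Cdh5 were not called.

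The erythroid genes rose in 4 of 6 tested (median 2.02). Hbb-b2, a beta globin, read 400, 319 and 459 against 2162 and 1738 (log2 change 2.32, adjusted p = 0.000706), Alas2, the first enzyme of heme synthesis in red cells, rose by 2.52 and Hba-a1 by 1.72, beside Car2. Klf1 and Slc4a1, markers of red cell precursors, differed by 0.03 and 0.15 and were not called. Fewer erythroid genes were called without either pregnant array, and only Car2 was called in both of these fits. Sox10, a factor of glia that mammary epithelium also makes, rose from 206, 138 and 185 to 665 and 631 (1.90), while Pmp22, a myelin protein, fell by 0.97 and the myelin genes Mbp and Mag were not called. None of 7 tested epidermal genes was called with limma, and at an unadjusted p under 0.05 0 were higher and 0 lower. Of 19 immediate early genes, which respond to handling of tissue, 5 were lower, among them Nr4a1 (-1.44) and Dusp1 (-1.04), and 1 was higher, Myc. The 5 calls lower became 3, 2 and 3 without virgin replicates 1, 2 and 3, and 0 without either pregnant array.

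**Figure D3:**
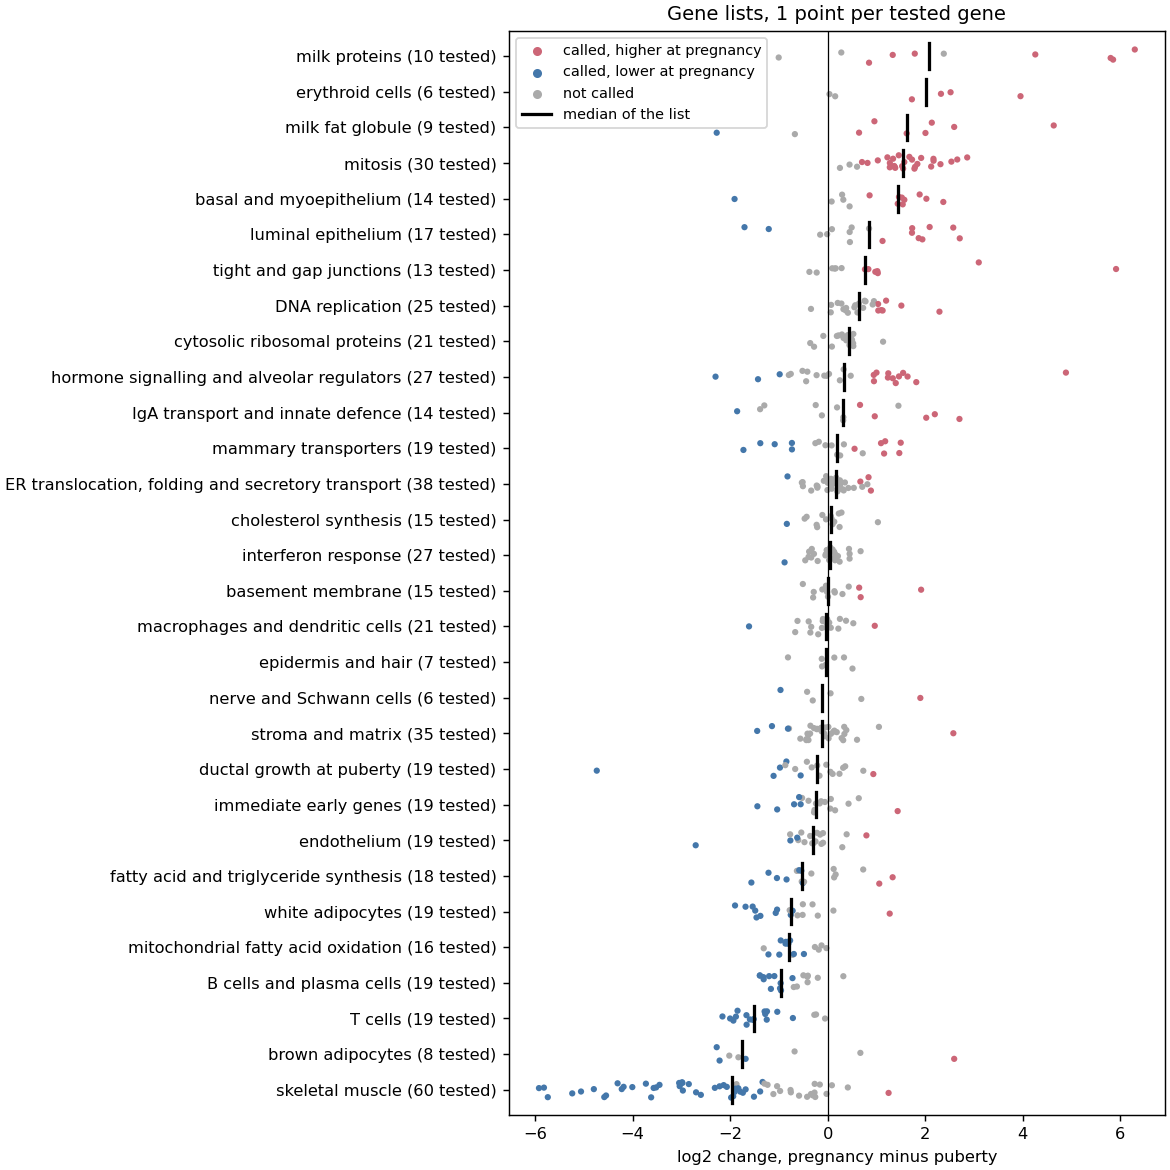
Log2 change (pregnancy minus puberty) of each tested gene in 30 gene lists, ordered by the list median (black bar), with genes called higher in red, lower in blue and not called in grey. Milk proteins (median 2.08), erythroid cells (2.02), milk fat globule (1.62) and mitosis (1.53) stand at the top, and T cells (-1.52), brown fat (-1.76) and skeletal muscle (-1.96) at the bottom.

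**Figure D4:**
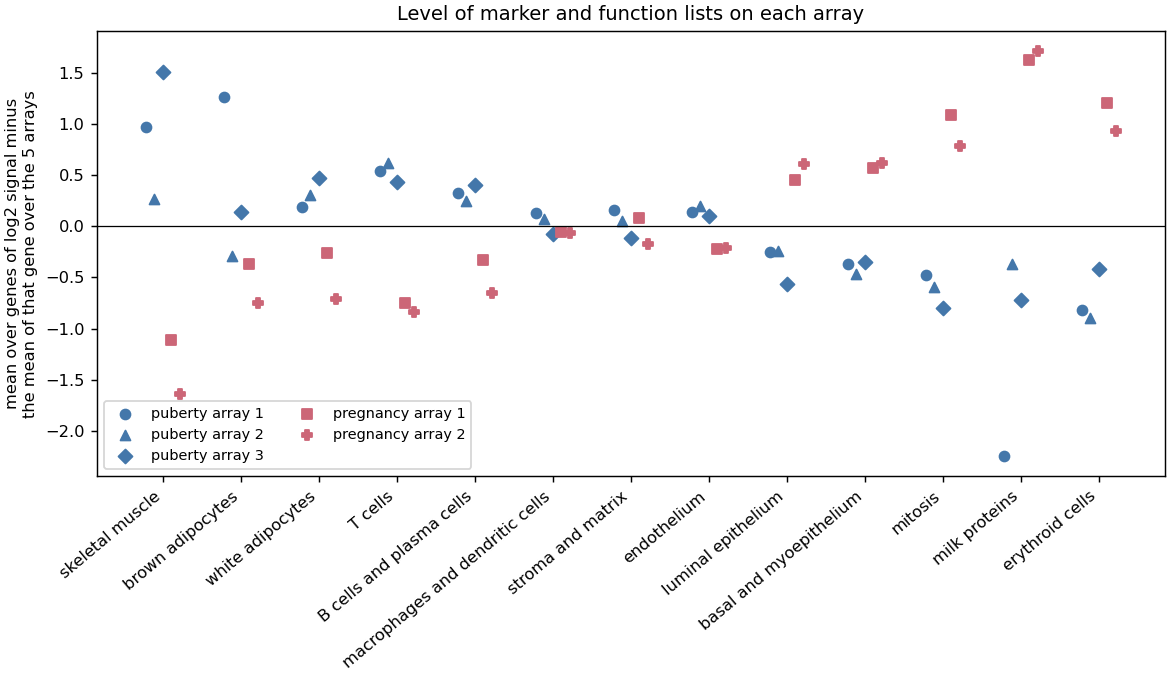
Mean over the tested genes of a list of the log2 signal minus that gene's mean over the 5 arrays (vertical axis), for 13 lists and each array, with puberty arrays in blue and pregnancy arrays in red. Muscle is highest on virgin replicate 3, and brown fat and the low milk protein level single out virgin replicate 1. The stages overlap in the lists of macrophages and dendritic cells and of stroma and matrix, and in no other list shown.

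The study named representative genes of its clusters high at pregnancy, at pregnancy and lactation, or at puberty from the same samples. Only these representatives were looked at here, not the whole clusters, and their directions here are not independent evidence. All 5 representatives for pregnancy were higher: Stmn1, Phlda1, Crabp2, Reln (42.0, 30.5 and 34.1 against 234 and 215, log2 change 2.67) and Csrp1 (1.49). All 4 for pregnancy and lactation were higher, Fabp3, Cd24a (1.73), Uck2 (0.77) and Cd320 (0.70). The calls of Uck2 and Cd320 were lost without virgin replicate 2, and that of Cd320 also without virgin replicate 1. All 4 for puberty were lower, Myl1 (-4.22), Casq1 (-4.01), Eno3 (-3.52) and Cox8b (-1.69), and all 4 also stood in the skeletal muscle list. Without pregnant replicate 1 the calls of the 3 sets numbered 2, 0 and 1, and without pregnant replicate 2 they numbered 1, 0 and 0. The other tested probe set of Reln (5.13 to 35.4 against 43.6 and 19.4) differed by 0.15 and was not called.

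Placed among the other stages as a description, with the arrays of all 4 stages scaled to 1 median, the genes that rose did not all go on rising. Of the 771 probe sets called higher, 256 (33.2%) had a lactation mean above that of pregnancy, 282 (36.6%) lay between puberty and pregnancy, and 233 (30.2%) lay below puberty. Of the 727 called lower, 425 (58.5%) were lower still at lactation, and 89 (12.2%) exceeded the puberty mean. At involution 552 (71.6%) of the risen and 481 (66.2%) of the fallen probe sets lay between the puberty and pregnancy means. Wap, Csn1s2b and Lalba, which were low or without a call at pregnancy, read 31980 and 25790, 18850 and 12380, and 22880 and 18350 on the lactation arrays. Phlda1 (14.7 and 36.5), Lgals7 (18.1 and 13.6) and Reln (3.74 and 6.15) were high at pregnancy and, at lactation, below every puberty array or under the floor. Cidea, which fell between puberty and pregnancy, read 14890 and 10790 at lactation.

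**Figure D5:**
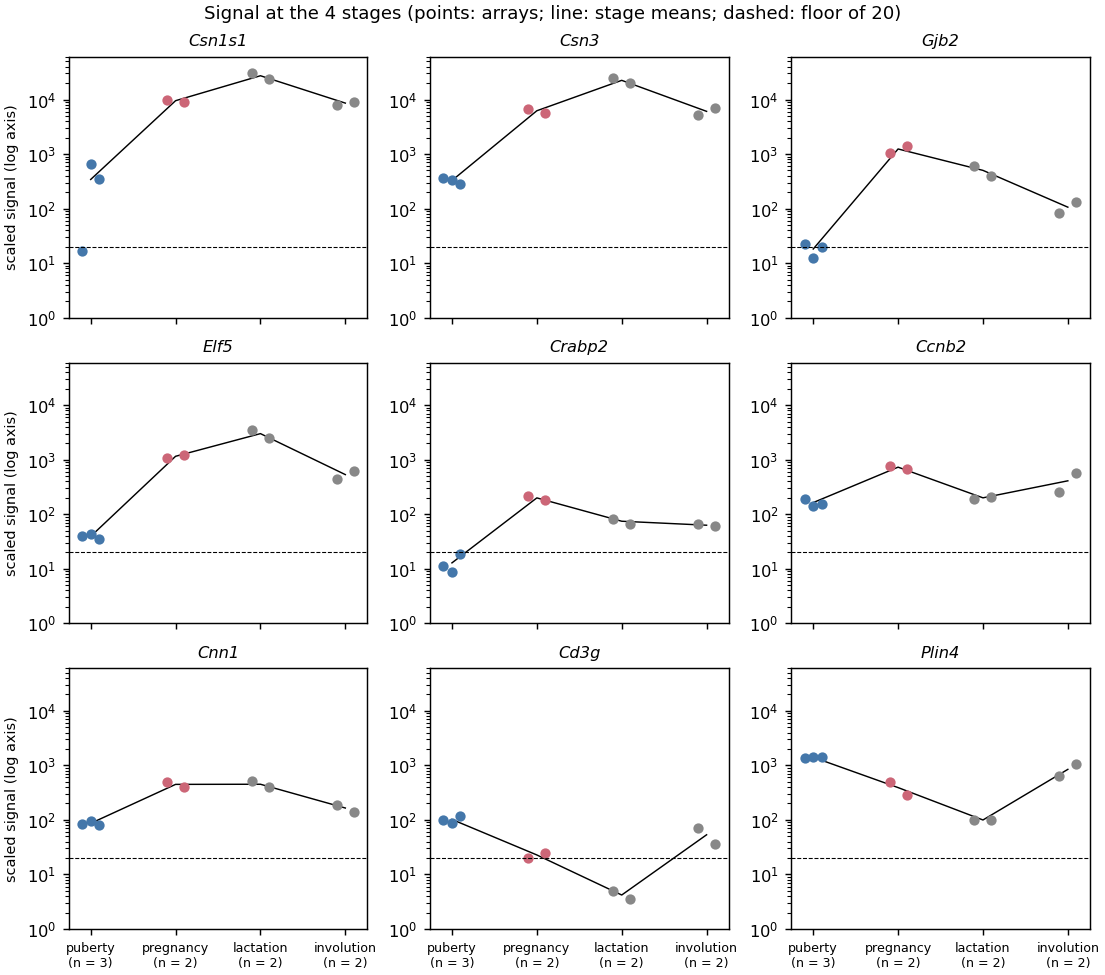
Scaled signal on a log axis at puberty (3 arrays), pregnancy, lactation and involution (2 arrays each) for 9 genes, with points for arrays, a line through stage means and a dashed line at the floor of 20. Csn1s1, Csn3 and Elf5 rise further to lactation, Gjb2, Crabp2 and Ccnb2 are highest at pregnancy, Cnn1 stays level to lactation, and Cd3g and Plin4 fall on to lactation and are higher again at involution.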

How the data were processed

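RNA from whole inguinal mammary glands was hybridised to Affymetrix MG-U74Av2 arrays, 1 mouse per array. The authors deposited 1 signal intensity per probe set and array on a linear scale, computed with MAS5 per the submitters' processing notes, in which every array had a trimmed mean of 125.1. The MAS5 version is not given in the sources used here. From these values, each of the 5 arrays was scaled to a common median over 12422 probe sets (scale factors 0.977 to 1.03), with 66 controls left out, and signals below a floor of 20 were raised to it before log2 transformation. A probe set was tested if its stage mean exceeded 20 at puberty or at pregnancy (8874, of which 396 passed through the pregnant mean alone and 427 through the virgin mean alone) with limma 3.58.1 in R 4.3.3 (lmFit, eBayes with a trend, two-sided, Benjamini-Hochberg over all tested). The spread was estimated from 5 mice, with 3 residual and 4.18 prior degrees of freedom. The script was tested on simulated data.

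A MAS5 signal depends on the probes, so levels of different genes were not compared. Gene symbols came from the platform annotation, updated through Entrez IDs with RefSeq (GRCm38.p6): 10833 probe sets had 1 symbol, 396 several and 1193 none. A gene stands by its brightest probe set. Where all arrays of a stage were at the floor, a fold is a lower bound and that stage adds no spread to the fit. Promoter windows are RefSeq sequences and the motif search covered both strands.

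The comparison, gene lists and genes were chosen with earlier results of these data known. Named genes were the 15 largest rises and falls outside muscle, the 8 largest muscle falls, the 4 most significant called members of each list, called members against their list's majority, the representative genes the study lists, and all milk protein, hormone, ductal and junction genes. Defining cell markers were checked whatever their values. Lists are described by counts and medians, with no set test.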

Additional observations from a re-analysis of the deposited data

How the results depend on the processing

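The 1498 calls (771 higher, 727 lower) came to 1188 to 1577 under the other scalings, no floor, a constant of 16 in place of the floor, the other filters on signal, all 9 arrays in the fit, and eBayes without a trend or robust. They fell to 678 (429 higher, 249 lower) with a floor of 50, to 501 (317 and 184) with no filter, and to 135 (96 and 39) with a plain analysis of variance of the 5 arrays. That is not the test of the study, which used the error estimates of GeneSpring over all 4 stages and was not run here. With the replicate number as a block 986 passed (484 higher, 502 lower). Virgin and pregnant arrays share only a number: deviations of same-numbered arrays correlated at 0.0317 and -0.0156, and virgin replicate 3 has no partner. Leaving out 1 array gave 201 to 1164 calls, 174 to 597 higher and 27 to 567 lower, where the array left alone in its stage is assumed to vary like the virgin arrays. Of the 1498 calls, 900 passed in the same direction with the block. No change turned its direction under any alternative that tested it, apart from 30 that came to 0 with both stages at the floor of 50. With the block or 1 array left out, the lack of overlap between the stages fixed the direction in advance. Among 152 named calls, 4, 13 and 12 were lost without virgin replicates 1, 2 and 3, 93 and 120 without pregnant replicates 1 and 2, 16 with the block and 55 at the floor of 50. Of the same named calls, 76 were lost with no filter and 127 with the plain analysis of variance. The causes were not tested. Changes of probe sets with a stage at the floor are bounds. The calls of Notch4, Wnt4, Ocln, Prim1 and Slc34a2 were among those lost at the floor of 50.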

Other observations

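The clock genes were looked at after their values were seen, and no test of the group was made. Of 15 on the array 13 were tested, 5 were lower and 1 was higher at pregnancy. Dbp, an output factor of the clock, read 75.2, 159 and 191 on the virgin arrays and 7.11 and 21.2 on the pregnant arrays (log2 change -2.68, adjusted p = 0.00555). Its relative Tef read 323, 357 and 435 against 129 and 143 (-1.44, adjusted p = 0.00241). Nr1d1, a repressor of Arntl, read 183, 270 and 315 against 86.1 and 80.1 (-1.59), Nr1d2 127, 187 and 229 against 87.5 and 89.5 (-0.99), and Per1 135, 115 and 156 against 91.0 and 57.9 (-0.89). Cry1 read 73.5, 82.4 and 82.2 against 135 and 121 (0.69, adjusted p = 0.0349). Arntl, the core activator, read 63.4, 42.1 and 31.4 against 79.9 and 86.8 and did not pass (0.93, adjusted p = 0.0844), and Clock read 55.3, 53.1 and 57.0 against 61.3 and 49.6. Dbp was under 20 on both lactation arrays (7.06 and 4.13) and read 102 and 211 at involution.

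Some further genes were also picked after their values were seen. The metallothioneins Mt1 (415, 325 and 434 against 1123 and 1853) and Mt2 (575, 416 and 485 against 1300 and 2512), which bind zinc and copper, both rose by 1.89. Rspo1, a secreted amplifier of WNT signals, read 0.59, 1.31 and 1.11 against 171 and 190, at least 9.03-fold higher (limma, adjusted p = 0.000338). Cck, the hormone cholecystokinin, read 3.63, 18.2 and 9.87 against 122 and 195, at least 7.72-fold higher. All virgin arrays of both genes were raised to the floor, so the fit had no spread to measure at puberty. Rspo1 read 2.91 and 4.77 at lactation and 1.64 and 3.54 at involution, so that among the 4 stages it was above the floor at pregnancy alone.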
